A study of Mus musculus with 4 samples.

Results

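Ccl2, Ccl7, Ccl8, Ccl12 and Ccr2 are the genes of the chemokine axis that brings monocytes from the bone marrow into inflamed tissue and tumors, and they were followed here by name as 5 of the 33696 genes in the count matrices. The study treated mice carrying KPC tumors, subcutaneous tumors of a mouse pancreatic cancer line, and sorted live CD45+ leukocytes for single-cell RNA sequencing. There were 4 groups with 1 library each. One received nothing, one received a STING agonist (ADU-S100, a cyclic dinucleotide injected into the tumor), one received an LTbR agonist (an agonistic antibody to the lymphotoxin-β receptor given intraperitoneally) and one received both, here called the combination. In the study the STING agonist was given once, at the start, and the antibody 4 times. Tumors were taken days after the last antibody dose and longer after the STING agonist, so early responses were not sampled. All groups were male C57BL/6 mice with the same tumor line, and the tumors of a group were pooled before the sort, so mice cannot be told apart within a library. Cells such as endothelium, fibroblasts and tumor cells, which can also make these chemokines, were largely removed by the CD45 gate.

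CCL2, CCL7 and CCL12 are ligands of the receptor CCR2, which classical monocytes carry at a high level, and CCL8 is a close relative that in the mouse is known mainly as a ligand of CCR8. CCR2 is needed for monocytes to leave the marrow, and its RNA is lowered as monocytes become macrophages. In tumors the ligands are made by macrophages, by monocytes and by cells of the stroma.

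The 4 ligand genes lay in 1 region of mouse chromosome 11 in the order Ccl2, Ccl7, Ccl12 and Ccl8, within 81229 bases of the GRCm38 assembly (GENCODE annotation), all on the plus strand, with Ccl11 annotated between Ccl7 and Ccl12. Ccl2 (ENSMUSG00000035385) was annotated at chr11:82035571-82037453, Ccl7 (ENSMUSG00000035373) at chr11:82045712-82047525, Ccl12 (ENSMUSG00000035352) at chr11:82101845-82103400 and Ccl8 (ENSMUSG00000009185) at chr11:82115185-82116799. Ccr2 (ENSMUSG00000049103) was annotated apart from them, at chr9:124101950-124113557. RefSeq promoter windows were matched for 3 of the 5 genes, Ccl12, Ccl8 and Ccr2. The bases just before the starts of Ccl12 and Ccl8 are printed because these were the ligand genes with a window. They cover chr11:82101745-82101844 and chr11:82115085-82115184 on the plus strand of GRCm38.p6, 100 bases each, and the capitals mark the letters TATAAA.
Ccl12: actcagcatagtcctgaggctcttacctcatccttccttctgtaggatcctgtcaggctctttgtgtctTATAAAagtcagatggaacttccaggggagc
Ccl8: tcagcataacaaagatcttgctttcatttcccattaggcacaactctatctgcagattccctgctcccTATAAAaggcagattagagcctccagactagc
These letters began 31 bases before the start of Ccl12 and 32 bases before that of Ccl8, and they were in the 250 bases before the start on either strand in 12.4% of 32851 promoters. They were not in the window of Ccr2, whose RefSeq start lies inside the gene as GENCODE annotates it, so that this window may cover transcribed sequence. The letters GGG and TTTCC with 2 bases between them, a core of NF-kB sites, and TTTC repeated after 2 bases, a core of interferon response elements, were searched on both strands of the same windows. They were in 1.41% and 2.98% of all windows and in none of these 3.

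Levels are given as CPM, the UMIs (counted RNA molecules) of a gene for each 1000000 UMIs of the cells summed, and every interval is an exact 95% interval that covers counting error only. With 1 library per group there was no replicate check and no test was run. A ratio of 2-fold, an absolute log2 ratio of at least 1, was used as the limit of size. Cell types were named from clusters by their marker genes and carry the ending -like, and the 5 genes were kept out of the clustering. The kept leukocytes numbered 7368 in the untreated library, 13220 with the STING agonist, 13023 with the LTbR agonist and 14418 with the combination, at a median of 4582, 3113, 3703 and 2172 UMIs per cell. The STING agonist library stood apart by its neutrophil-like cells (40% of leukocytes, against 6.66% to 8.92% in the others) and the combination library was the shallowest. Pairs of libraries shared 34 to 83 cell barcodes, under 0.539% of either library. All 12 macrophage and monocyte markers were detected in the class of that name, which held 52.9%, 41.9%, 54.4% and 54.4% of leukocytes in the same order of libraries. Clusters that took no name held 5.88% to 10.2%.

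The ligands were found almost wholly in the macrophage/monocyte-like class, while Ccr2 was also found in NK-like, T-like and DC-like cells. In each library at least 95.8% of the leukocyte UMIs of each ligand came from this class, and 81.7% to 86.6% of those of Ccr2. Ccl2 stood at 466 CPM in the untreated class, 629 with the STING agonist, 394 with the LTbR agonist and 253 with the combination. Outside the class it was low, at 4.51 to 10.4 CPM in T-like cells, 3.91 to 6.24 in NK-like cells and 12.96 to 22.7 in neutrophil-like cells. The same classes held Ccl7 and Ccl12 at no more than 24.8 and 14.9 CPM, and Ccl8 at no more than 38.9. A few small populations read higher through few cells. Among 18 mast and basophil-like cells with the STING agonist, all 147 Ccl7 UMIs lay in 1 cell and 23 of the 24 Ccl2 UMIs in 1 cell. Among 80 pDC-like cells of the untreated library, the 66 Ccl2, 69 Ccl7, 51 Ccl8 and 103 Ccl12 UMIs lay in 10, 8, 12 and 9 cells. Among B-like cells Ccl2 reached 102 CPM in the STING agonist library (96 UMIs in 8 of 49 cells) and 49.7 CPM with the LTbR agonist (205 UMIs in 32 of 411 cells).

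**Figure D1:**
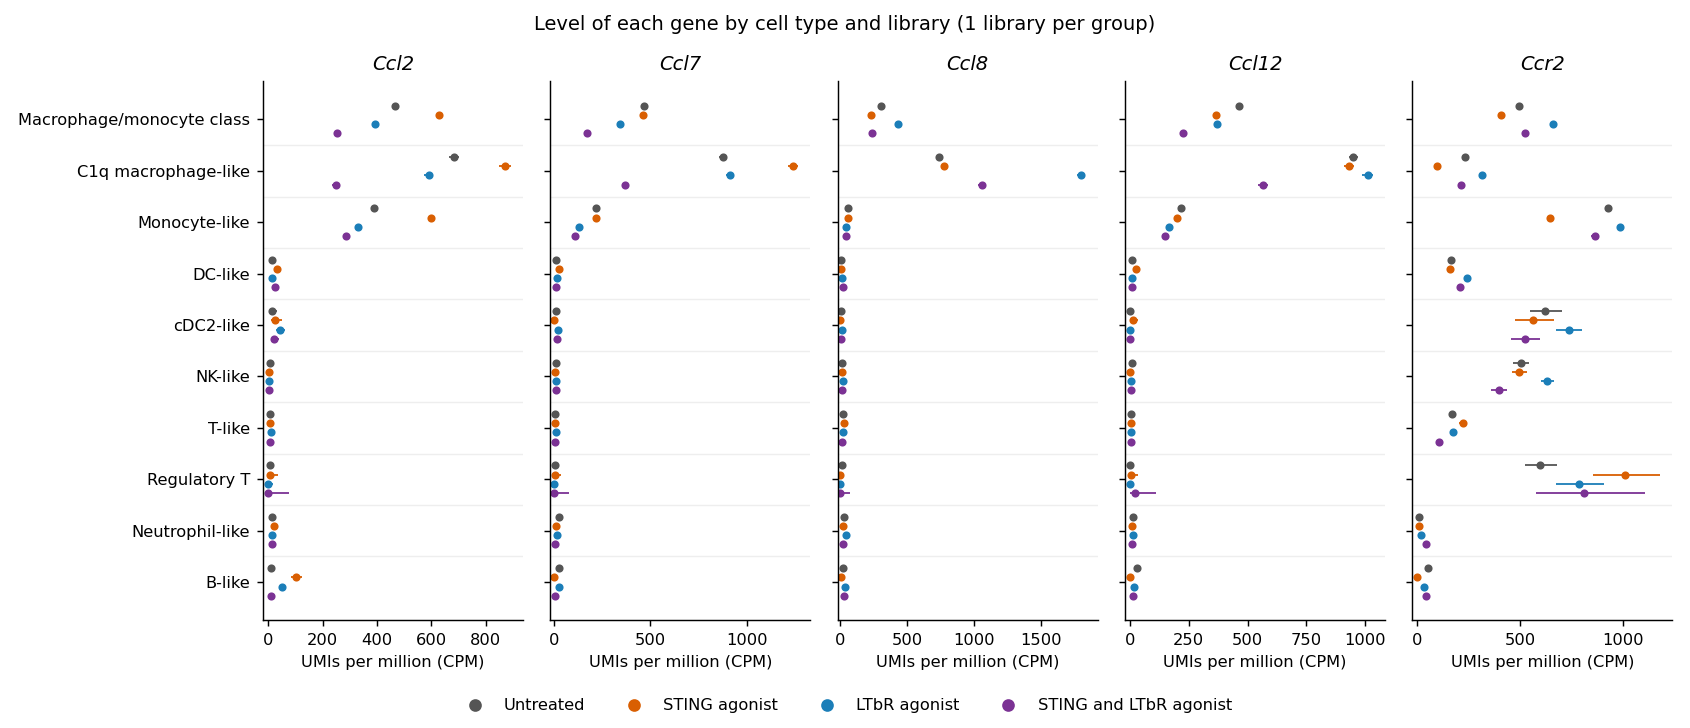
Level of each gene in CPM (x axis, linear, a scale of its own in each panel) in 10 cell types (y axis), with 1 point per library and bars for exact 95% Poisson intervals. The ligands were high in the macrophage and monocyte rows only (apart from Ccl2 at 102 CPM in the 49 B-like cells of the STING agonist library), whereas Ccr2 was also high in cDC2-like, NK-like and regulatory T cells.

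Within the class the ligands and the receptor were highest in different cells. C1q macrophage-like cells, named for the complement genes C1qa, C1qb and C1qc, were highest for Ccl7, Ccl8 and Ccl12 among the named subsets and classes of at least 50 cells in each library, and monocyte-like cells were highest for Ccr2. Ccl8 had the sharpest contrast, with 738, 775, 1802 and 1060 CPM in C1q macrophage-like cells of the untreated, STING agonist, LTbR agonist and combination libraries. In monocyte-like cells it was 59.98, 56.2, 44.4 and 44.3 CPM, not far above the 18.0 to 38.9 CPM of neutrophil-like cells. Ccl12 was 949, 930, 1010 and 566 CPM in C1q macrophage-like cells and 215, 199, 166 and 151 in monocyte-like cells. Ccl7 was 877, 1242, 912 and 367 CPM in C1q macrophage-like cells and 219, 219, 132 and 110 in monocyte-like cells.

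Ccl2 was shared most evenly between both subsets. It was 683, 870, 590 and 247 CPM in C1q macrophage-like cells and 389, 597, 331 and 287 in monocyte-like cells, so that in the combination library alone the monocyte-like level lay above. In that library cycling-like and monocyte-like cells did not differ beyond their intervals (289 and 287 CPM). Ccr2 took the opposite order, with 928, 646, 984 and 860 CPM in monocyte-like cells and 233, 96.3, 315 and 214 in C1q macrophage-like cells. No library had the 2 subsets in another order for Ccl7, Ccl8, Ccl12 or Ccr2.

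The numbered subclusters of the class showed the same division in finer detail. Subcluster 3, a monocyte-like group of 2233 cells led by Ace, Hp and Sirpd, had the highest Ccr2 of the named subclusters (1483, 1195, 1525 and 1323 CPM) and almost no Ccl8 (12.1, 5.46, 17.7 and 11.7 CPM). It held 0.361 ligand UMIs for each Ccr2 UMI. Subcluster 2, a C1q macrophage-like group of 2449 cells led by Klra17, Vcam1 and Mmp2, lay at the other end with 26.7 ligand UMIs for each Ccr2 UMI. Across the 21 subclusters with enough cells, the Pearson correlation of log levels with Ccr2 was -0.36 for Ccl7, -0.40 for Ccl8, -0.27 for Ccl12 and 0.13 for Ccl2. The ligands went together more closely, with 0.82 between Ccl7 and Ccl12, 0.78 between Ccl7 and Ccl8 and 0.64 between Ccl2 and Ccl7, but only 0.12 between Ccl2 and Ccl8. The subclusters share libraries and depth, and these correlations are descriptions.

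**Figure D2:**
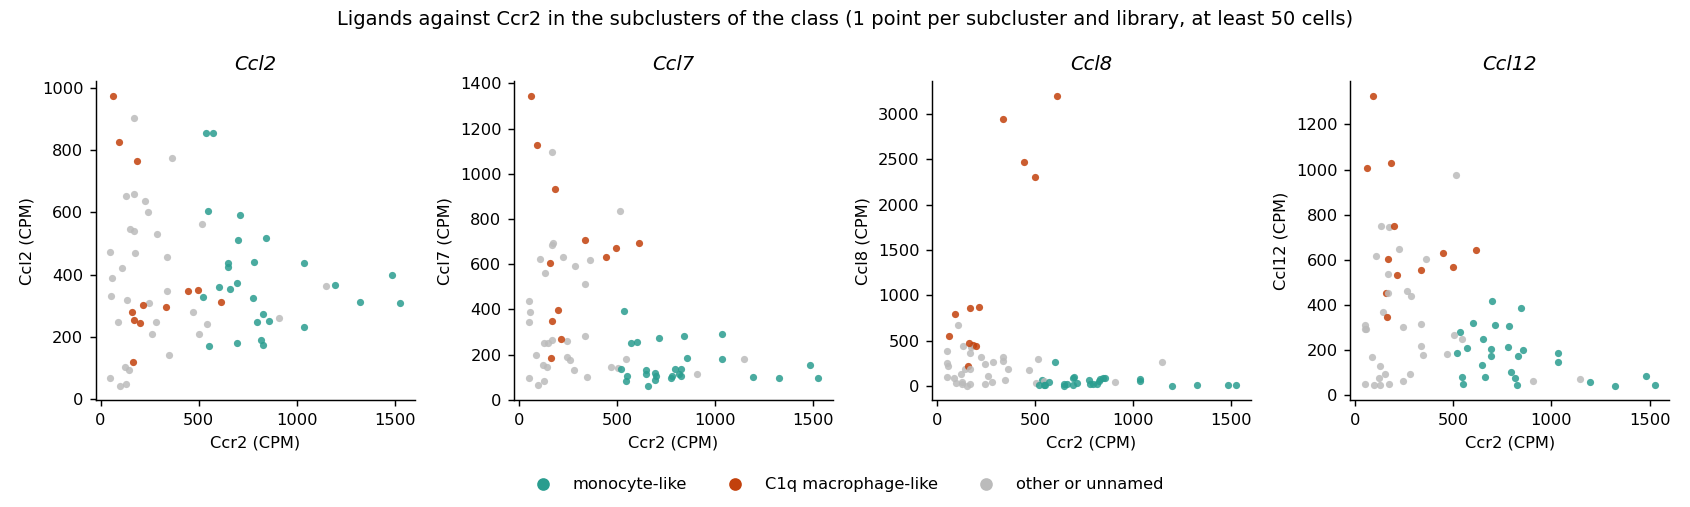
Level of each ligand (y axis, CPM) against that of Ccr2 (x axis, CPM) in the subclusters of the macrophage/monocyte-like class, with 1 point per subcluster and library of at least 50 cells, colored by subset. Subcluster 3 lies to the right, with Ccr2 at 1195 to 1525 CPM, and subcluster 2 to the left, with 63.8 to 184 CPM, while other monocyte-like and C1q macrophage-like points overlap in Ccr2 and in Ccl7, and the 4 points of Ccl8 above 2000 CPM belong to 1 subcluster.

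The first question was how the library of each single agonist compared with the untreated library. Against the untreated library, none of the 5 genes passed 2-fold in the class with the STING agonist (4.37% of 10380 genes passed in either direction) or with the LTbR agonist (1.39% of 10433). With the STING agonist, Ccl2 was 1.35-fold the untreated level (log2 ratio 0.43, interval 0.40 to 0.46), Ccl7 was equal within counting error (-0.01, interval -0.04 to 0.02), and Ccl8 (-0.42), Ccl12 (-0.34) and Ccr2 (-0.27) were lower. The median over all genes of the class was itself -0.20 in this comparison, and Ccr2 stood closest to it. With the LTbR agonist, Ccl8 (0.48) and Ccr2 (0.42) were higher and Ccl7 (-0.46), Ccl12 (-0.32) and Ccl2 (-0.24) were lower, beside a median over all genes of -0.04.

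These class values mixed different subclusters, whose shares differed between the libraries. With the share of each subcluster held at its mean over the libraries, a setting added after the data were seen, Ccl8 with the STING agonist turned from -0.42 to 0.36, Ccl12 from -0.34 to 0.03 and Ccl7 from -0.01 to 0.26. With the LTbR agonist Ccl12 turned from -0.32 to 0.18, Ccl7 came to -0.06 and Ccr2 to 0.07. The 2 subsets also parted. Ccr2 with the STING agonist was 0.413-fold the untreated level in C1q macrophage-like cells (log2 ratio -1.28, interval -1.40 to -1.15), where 0.299% of 7693 genes were 2-fold lower, and 0.697-fold in monocyte-like cells (-0.52, interval -0.56 to -0.48). The monocyte-like subset was made up differently in these libraries, with the high-Ccr2 subcluster 3 at 22.8% of it untreated and 9.94% with the STING agonist and subcluster 4 at 11.7% and 30.6%. Inside these subclusters the log2 ratio of Ccr2 was -0.31 and -0.41. It was below the untreated level in 14 of the 15 subclusters that could be compared, beside a median of -0.20 over all genes of the class. No median over all genes was taken inside subclusters. Ccl2 with the STING agonist was higher in both subsets, at log2 0.35 and 0.62.

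Ccl8 with the LTbR agonist was the only member past 2-fold in C1q macrophage-like cells in that comparison, at 1802 against 738 CPM (log2 ratio 1.29, interval 1.25 to 1.33), where 0.863% of 7876 genes were 2-fold higher. In monocyte-like cells its log2 ratio was -0.43 (interval -0.59 to -0.28), at a level near that of other classes. The C1q macrophage-like subset of this library was made up differently. Subcluster 10, led by the scavenger receptor gene Cd163 and by Cbr2 and Slco2b1, held 52.6% of the subset with the LTbR agonist (647 of 1231 cells) but 19.5%, 16.5% and 18.8% in the untreated, STING agonist and combination libraries. It had Ccl8 at 2302, 2937, 3200 and 2468 CPM. With the LTbR agonist it held 10160 Ccl8 UMIs against 3263 in subcluster 2, while subcluster 2 held more in the untreated (3303 against 3242), STING agonist (3573 against 2276) and combination (2816 against 1964) libraries. Inside subcluster 10 the log2 ratio of Ccl8 with the LTbR agonist was 0.48 and inside subcluster 2 it was 0.82 (449 against 794 CPM), both under the 1.29 of the whole subset.

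**Figure D3:**
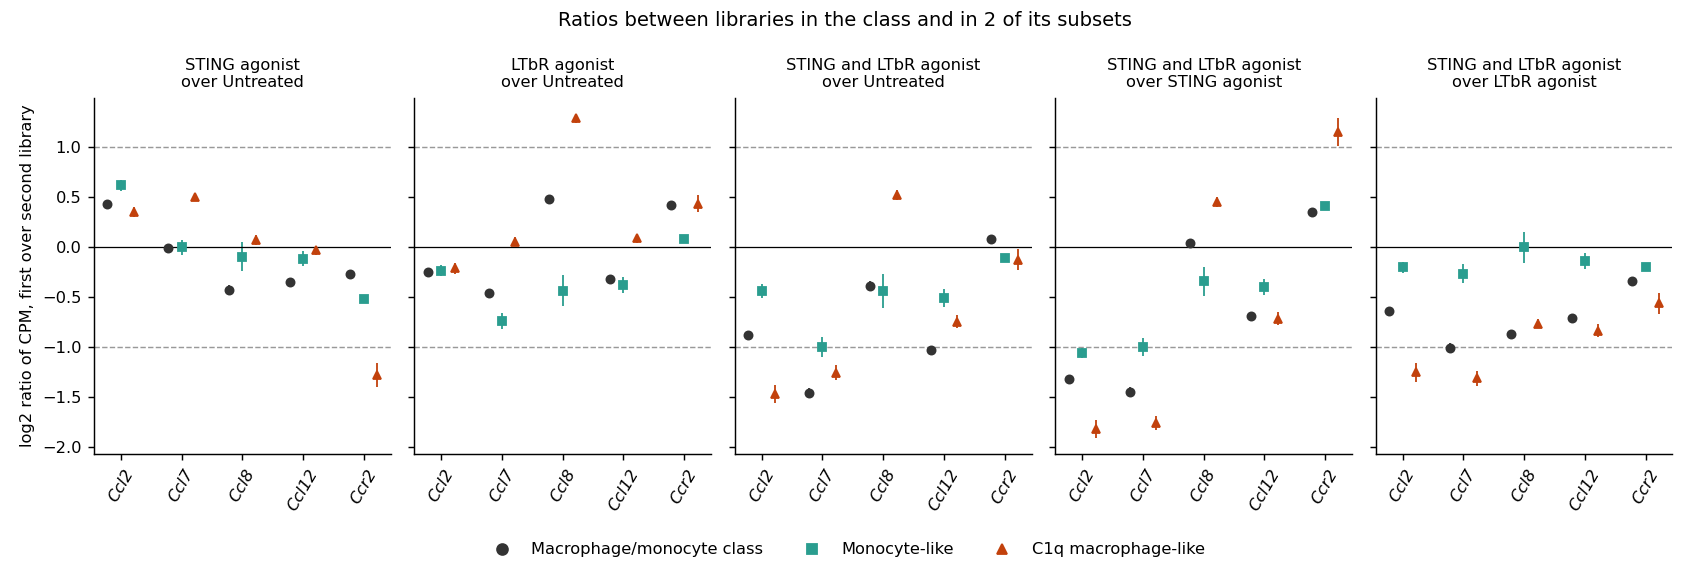
Log2 ratio of the level between 2 libraries (y axis) for each gene (x axis) in 5 comparisons, in the whole macrophage/monocyte-like class (circles), monocyte-like cells (squares) and C1q macrophage-like cells (triangles), with bars for exact 95% intervals and dashed lines at 2-fold. Ccl2 and Ccl7 in C1q macrophage-like cells lie below the lower dashed line in all 3 comparisons of the combination, and Ccl8 with the LTbR agonist and Ccr2 for the combination over the STING agonist lie above the upper one.

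The combination library had the lowest Ccl2, Ccl7 and Ccl12 of all 4 libraries in the class. Ccl7 was 466 CPM untreated, 462 with the STING agonist, 340 with the LTbR agonist and 169 with the combination, and Ccl12 was 464, 366, 372 and 227. Against the untreated library, Ccl7 (log2 ratio -1.46, interval -1.51 to -1.41) and Ccl12 (-1.03, interval -1.07 to -0.99) passed 2-fold downward, where 0.355% of 10148 genes did so, and Ccl2 was at -0.88. Ccl8 was at -0.38 and Ccr2 at 0.08. With subcluster shares held at their mean these values were -1.08 for Ccl7, -0.55 for Ccl12, -0.70 for Ccl2, 0.29 for Ccl8 and -0.11 for Ccr2, so that Ccl7 alone stayed past 2-fold and Ccl8 and Ccr2 changed sign.

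The next question was how the combination compared with each agonist alone. Over the STING agonist, Ccl2 (-1.31) and Ccl7 (-1.45) passed 2-fold downward in the class, where 1.06% of 10356 genes did so, and Ccl12 was at -0.69, Ccl8 at 0.04 and Ccr2 at 0.35, beside a median over all genes of 0.10. With subcluster shares held at their mean Ccl2 stopped just short of 2-fold (-0.99), Ccl7 was at -1.34 and Ccl8 changed sign (-0.07). Over the LTbR agonist, Ccl7 lay at the limit (-1.004), where 0.211% of 10405 genes were past it, and the other 4 were lower without reaching it, from -0.87 for Ccl8 to -0.34 for Ccr2. Ccl8 came to -0.25 here with subcluster shares held at their mean. These comparisons share their libraries and are not independent of each other. For Ccl2 the C1q macrophage-like subset differed more than the class in all 3 comparisons of the combination. There Ccl2 was 0.362-fold the untreated level, 0.284-fold the STING agonist level and 0.420-fold the LTbR agonist level, and Ccl7 was 0.419-fold, 0.296-fold and 0.403-fold, while 0.179%, 0.708% and 0.592% of genes were 2-fold lower in the 3 comparisons. The subset of the combination library was made up differently, with subcluster 2 at 49.9% of it against 73.3%, 69.2% and 38.8% in the untreated, STING agonist and LTbR agonist libraries and subcluster 15 at 31.3% against 7.24%, 14.3% and 8.61%. Ccl8 was 1.44-fold the untreated level in the same cells, and Ccr2 was 2.22-fold the STING agonist level, where 0.91% of 6922 genes were 2-fold higher. In monocyte-like cells Ccl7 was at the limit against the untreated library (-1.001, interval -1.10 to -0.90) and Ccl2 at -0.44, where 0.176% of 7948 genes were 2-fold lower. Over the STING agonist Ccl2 passed it in these cells (-1.06, interval -1.11 to -1.003) and Ccl7 stopped just short (-0.9995), where 0.802% of 8726 genes were 2-fold lower. The 2 libraries drew these cells from different subclusters, with subcluster 4 at 9.55% of the subset in the combination and 30.6% with the STING agonist and subcluster 6 at 21.1% and 8.89%. The subset of the untreated library also differed from the combination. It had 11.7% in subcluster 4, 9.27% in subcluster 6 and 15.2% in subcluster 11 (8.03% in the combination). Over the STING agonist the log2 ratio of Ccl2 was -1.01 inside subcluster 4 and -0.15 inside subcluster 6. Subcluster 6 was the shallower, at a median of 1250 UMIs per cell against 6879 in subcluster 4. The immunoglobulin genes Ighg2b, Igkc and Ighg2c were among its leading genes.

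Of the 3 C1q macrophage-like groups, subclusters 2 and 15 had lower Ccl2 and Ccl7 in the combination than in each other library, while subcluster 10 did not separate it from the untreated library. In subcluster 2, Ccl2 was 764, 976, 826 and 254 CPM and Ccl7 was 935, 1346, 1129 and 349 in the untreated, STING agonist, LTbR agonist and combination libraries, so the combination lay under each of the others by more than 2-fold. In subcluster 10, Ccl2 was 350, 296, 312 and 347 CPM and Ccl7 was 672, 708, 696 and 631, and the intervals of the combination over the untreated library included 0 for both (log2 -0.23 to 0.20 and -0.25 to 0.07). Subcluster 15, led by Tlr12, Il1rapl1 and Tmtc2, had Ccl2 at 245, 279, 302 and 120 CPM and Ccl7 at 398, 604, 267 and 183, in 72, 122, 106 and 409 cells with a median depth of 2011 UMIs. Ccl12 followed the same division, at 1030, 1005, 1328 and 604 CPM in subcluster 2, 749, 451, 534 and 348 in subcluster 15 and 568, 554, 645 and 630 in subcluster 10. Ccl8 did not, since in subcluster 2 it was 449, 551, 794 and 861 CPM and so highest in the combination. Ccr2 in subcluster 2 was 184, 63.8, 91.8 and 169 CPM, which put the combination near the untreated library and above both single agonists.

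**Figure D4:**
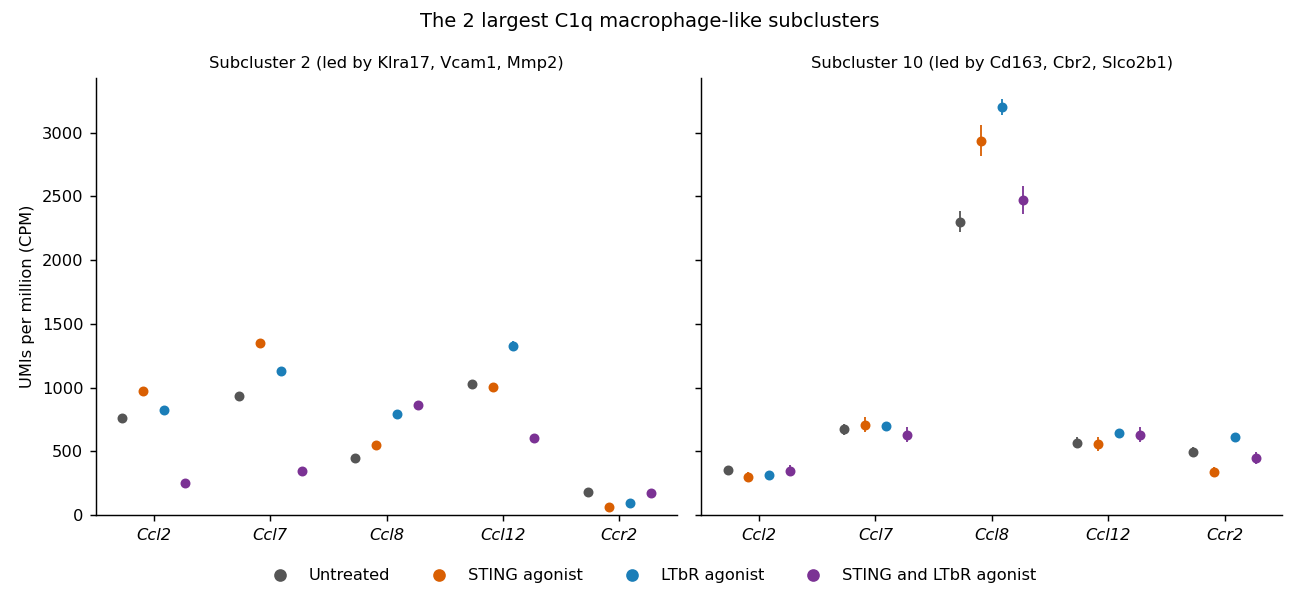
Level of each gene (y axis, CPM) in the 2 largest C1q macrophage-like subclusters, with 1 point per library and bars for exact 95% Poisson intervals. In subcluster 2 the combination was at 254 CPM for Ccl2 and 349 for Ccl7, under the other 3 libraries, while in subcluster 10 the 4 libraries lay within 296 to 350 and 631 to 708 CPM, and Ccl8 stood highest there, at 2302 to 3200 CPM.

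Over all subclusters with at least 50 cells in both libraries, the combination was lower than the untreated library in 14 of 16 for Ccl2, 13 of 16 for Ccl7, 12 of 16 for Ccl12 and 11 of 16 for Ccl8. Past 2-fold downward there were 3, 7, 4 and 4 of the 16, and past 2-fold upward 1 for Ccl2 (log2 1.37), 1 for Ccl12 (1.42) and 0 for the other ligands. Ccr2 was lower in 14 of 16 but past 2-fold in none, with a median log2 ratio of -0.16. Over all genes of the whole class the median log2 ratio was -0.09 in this comparison, with 0.355% of genes 2-fold lower and 1.27% 2-fold higher. No such share was taken inside single subclusters. Subclusters of 1 library share its depth and are not replicates. Among monocyte-like groups, subcluster 4, led by Cxcl3, Slfn4 and Il6, had Ccl2 at 591, 855, 373 and 424 CPM and held 7276 of the 13577 Ccl2 UMIs of monocyte-like cells in the STING agonist library. It had 818 cells there against 160, 717 and 363 in the untreated, LTbR agonist and combination libraries. Subcluster 3 had Ccl2 at 398, 368, 309 and 312 CPM, with the untreated and STING agonist intervals overlapping.

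The share of cells in which each gene was seen gave a view that does not weigh heavily expressing cells more. After each cell was thinned to 1000 UMIs, which left out 6.49% to 12.3% of the class as too shallow, Ccl2 was seen in 20.6%, 21.99%, 18.3% and 13.3% of cells of the class (43.1%, 39.9%, 34.9% and 23.4% unthinned). Ccl7 was seen in 18.5%, 15.2%, 12.9% and 8.28% and Ccl12 in 19.2%, 16.1%, 14.9% and 11.6% (unthinned 35.1%, 27.9%, 23.4% and 14.7%, and 37.9%, 33.8%, 29.1% and 20.9%). In the class as a whole the combination was lowest for these 3 ligands at equal depth, and its intervals did not reach those of the other libraries. In monocyte-like cells its intervals overlapped those of the LTbR agonist for each of the 3. The shares there were 14.8% and 16.4% for Ccl2, 5.26% and 5.87% for Ccl7 and 8.36% and 8.58% for Ccl12. In C1q macrophage-like cells these intervals were apart, at 13.8% and 25.5%, 18.3% and 34.3%, and 27.2% and 37.5%. Over the class Ccl8 was seen in 10.7%, 8.15%, 11.3% and 7.16% (23.0%, 17.1%, 20.5% and 11.99% unthinned), and the STING agonist and combination intervals overlapped. Ccr2 was seen in 30.6%, 26.1%, 38.8% and 33.7% (53.7%, 51.7%, 61.3% and 52.0% unthinned).

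As a background, T-like cells, which should lack these ligands, had them in 0.178% to 1.76% of cells at the same depth, and B-like cells had Ccr2 in at most 3.85%. The T-like median depth was 3366 UMIs in the untreated library against 6582.5 in the macrophage/monocyte-like class. Among the cells that had the gene, the mean number of UMIs per thinned cell was 1.91, 2.44, 1.94 and 1.80 for Ccl2 and 2.09, 2.61, 2.31 and 1.77 for Ccl7, highest with the STING agonist and lowest with the combination for both genes. The share of Ccl2 cells was likewise lowest in the combination, but the untreated and STING agonist shares had overlapping intervals at 1000 UMIs (19.3% to 21.9% and 20.9% to 23.2%) and were 30.1% and 30.02% at 2000 UMIs. In C1q macrophage-like cells Ccl8 was seen in 24.3%, 28.4%, 43.4% and 26.3% of cells at 3.28, 2.95, 4.401 and 3.99 UMIs each.

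**Figure D5:**
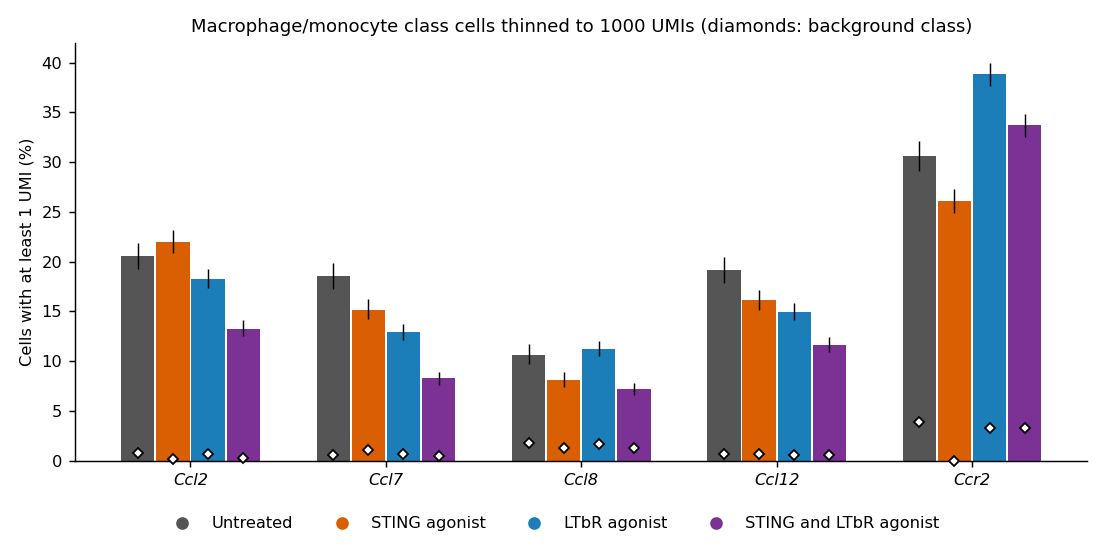
Share of macrophage/monocyte-like cells with at least 1 UMI of each gene (y axis, percent) after thinning to 1000 UMIs, with 1 bar per library and exact 95% intervals. Diamonds give the same share in T-like cells for the ligands and in B-like cells for Ccr2. The combination has the lowest bars for Ccl2, Ccl7 and Ccl12 at 13.3%, 8.28% and 11.6%, and the LTbR agonist the highest for Ccr2 at 38.8%.

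Cells with Ccl2 had Ccl7 more often than cells without Ccl2. Of thinned class cells with Ccl2, 43.6%, 39.9%, 34.9% and 26.1% also had Ccl7, against 12.05%, 8.20%, 8.02% and 5.55% of cells without Ccl2. Cells with Ccl8 had Ccr2 less often than the others, in 15.7%, 9.93%, 18.8% and 17.2% against 32.4%, 27.6%, 41.3% and 35.0%. Cells with Ccl2 had Ccr2 in 31.2%, 26.8%, 35.9% and 38.4%, against 30.4%, 25.9%, 39.5% and 33.0% of cells without it, with no common direction over the libraries. At least 1 ligand was seen in 42.1%, 38.4%, 36.7% and 28.9% of class cells, and a ligand together with the receptor in 11.1%, 8.57%, 11.6% and 8.73%.

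Much of the ligand RNA came from a small number of cells. In the untreated, STING agonist, LTbR agonist and combination libraries, 50% of the class UMIs of Ccl8 came from 71, 67, 110 and 61 cells (1.82%, 1.21%, 1.55% and 0.778% of the class), and in the combination library 1 cell held 254 of 6769. For Ccl2 the cells that held as much numbered 189, 215, 275 and 230, and for Ccr2 449, 589, 896 and 846 (10.6% to 12.7%). Without the 10 cells with most UMIs of the gene in each library, Ccl7 (-1.04) and Ccl8 (-1.02) both passed 2-fold downward for the combination over the LTbR agonist, where Ccl8 was at -0.25 with subcluster shares held.

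Outside the class Ccr2 marked several lymphoid and dendritic subsets, each much smaller than the class. NK-like cells had 504, 496, 631 and 397 CPM, and their share of cells with Ccr2 at 1000 UMIs was 31.6%, 31.7%, 34.8% and 30.1%, with overlapping intervals. Regulatory T cells were T-like cells with UMIs of Cd4 and Foxp3 and none of Cd8a or Cd8b1. They had 597, 1006, 786 and 811 CPM in 88, 29, 56 and 20 cells, and the interval of the combination (580 to 1105) covered the other 3 values. Cells of low depth can miss this rule, and the T-like median depth was 1672 UMIs in the combination library. CD4 T cells, which include the regulatory T cells, had 380, 492, 352 and 205 CPM. The combination was lowest, at a log2 ratio of -0.88 to the untreated library (interval -1.25 to -0.54). Regulatory T cells were 88 of the 262 CD4 T cells in the untreated library and 20 of 184 in the combination. What this makeup adds to the ratio was not tested. CD8 T cells stood at 46.9 to 89.8 CPM. cDC2-like cells, the dendritic subset closest to monocytes, had 623, 565, 736 and 524 CPM against 93.2 to 141 in cDC1-like and 4.62 to 24.0 in mature DC-like cells. Neutrophil-like cells had 9.26 to 44.4 CPM, within the range of the B-like background (0 to 54.2).

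Over all leukocytes, where class shares and levels within classes act together, Ccl2 was 308, 411, 257 and 168 CPM, Ccl7 308, 301, 220 and 112, Ccl8 206, 151, 279 and 158, Ccl12 307, 236, 239 and 150, and Ccr2 391, 301, 497 and 390. The combination was lowest for Ccl2, Ccl7 and Ccl12, as within the class. For Ccr2 the STING agonist library was lowest and the LTbR agonist library highest, while monocyte-like cells were 18.6%, 20.2%, 29.3% and 26.4% of leukocytes and C1q macrophage-like cells 13.5%, 6.45%, 9.45% and 9.07%.

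The genes around this axis were read in the class from lists of other ligands, other receptors, inducing cytokines and transcription factors, and genes of adhesion and maturation. With the STING agonist, 3 of 7 tested inducers passed 2-fold upward, Tnf (62.6 to 237 CPM, log2 1.92), Il1a (1.69) and Il1b (1.30), which encode cytokines known to induce Ccl2, beside 2.27% of all genes, and the median of the list was 0.50 against -0.20 over all genes. The ligand gene Ccl3 was at 1.29 and the receptor gene Cx3cr1, known from macrophages and patrolling monocytes, at -1.19, each the single member of its list past 2-fold of 7 and 5 tested, and 2.1% of all genes were 2-fold lower. With the LTbR agonist, Ccl24, a ligand of the eosinophil receptor, was at 1.58 and the only one of the 30 tested list genes past 2-fold, beside 1.13% of all genes 2-fold higher. With the combination none of the 30 passed against the untreated library, beside 1.63% of all genes in either direction, the largest being Klf4 (0.88), Csf1 (0.83), Il1b (0.76) and Cx3cr1 (-0.58).

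Over the STING agonist, the combination had Tnf at -1.80, Il1a at -1.29 and Ccl3 at -1.34, the 3 of 30 list genes past 2-fold, beside 1.06% of all genes 2-fold lower, with C5ar1 (-0.74) and Itgam (-0.62) the largest of their lists. Over the LTbR agonist only Ccl24 of these list genes passed (-1.23), beside 0.211% of all genes 2-fold lower, and the largest of the other lists were Il1a (-0.34), Ccr1 (-0.31) and Itgal (-0.49). The 11 adhesion and maturation genes had no member past 2-fold in any of the 5 comparisons. Markers of T and B cells in the class were low, with the T list at 4.51 to 15.6 CPM in sum and the B list at 22.7 to 270, of which Igkc was the most. The DC list summed to 157 to 268 CPM in the class, against 2998 to 3889 in DC-like cells. The neutrophil list summed to 801, 1635, 1248 and 1420 CPM in the class against at least 64189 in neutrophil-like cells, with none of its 10 genes at 0. Without the subclusters led by genes of other cell types, among them 1 led by the neutrophil genes S100a9 and S100a8, the 25 log2 ratios moved by at most 0.0455.

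The genes most like each member over 30 sums of class and library, among 10874 genes, were macrophage genes for the ligands. C3ar1, the receptor of a complement peptide, led for Ccl2 (Pearson r of log levels 0.95), Ccl7 (0.94) and Ccl12 (0.98), and Stab1, a scavenger receptor gene, led for Ccl8 (0.93) and was among the first 5 of all 4. Msr1, Ch25h and Fcrls followed for Ccl2, Fcrls, Msr1 and Dpep2 for Ccl7, Tfec, Folr2, Pdpn and Fcrls for Ccl8, and Ms4a7, Pf4 and Siglec1 for Ccl12. Among the genes most like Ccr2 were Ifi209, Disc1, Lat2 and Rgs1. The sums share cell types and libraries, so these values are descriptions.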

How the data were processed

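Live CD45+ cells of pooled tumors, 1 pool per group, were sequenced with a droplet kit that reads the 5′ end of RNA molecules and counts them by unique molecular identifiers (UMIs). The authors deposited count matrices of UMIs per gene and cell, made per their processing notes with Cell Ranger 7.1.0 on mm10, while the file header names version 8.0.1. The first of the study's experiments was not analysed here, and groups were taken from the treatment label. Cells with 300 to 5000 genes and at most 6% mitochondrial UMIs were kept, as in the study's methods. The highest Scrublet scores (0.4% per 1000 deposited cells) were removed as doublets, since the automatic threshold marked 1 cell in the LTbR agonist library and 0 in the others. Cells were clustered with leidenalg 0.10.2 and scanpy 1.11.5 (2000 variable genes, 30 components, 20 neighbors, resolution 1), without the 5 genes and the listed context genes. A cluster of at least 50 cells took the name of the list with the largest share of markers 2-fold over the median cluster and found in at least 10% of its cells. It stayed unnamed with under 3 such markers, with under 50% of the list (classes only), where another list had more of its 10 leading genes, or at low depth with no marker among them. These limits were set after the clusters were seen. Subclusters were numbered by size and are described by their leading genes.

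Sums of UMIs were compared as log2 ratios of CPM with 0.5 UMI added. Their exact binomial intervals, like the Poisson intervals of levels and the Clopper-Pearson intervals of shares, cover counting error only, because each group had 1 library. Genes with at least 200 UMIs in the 2 libraries were compared. The ratio step was checked on simulated counts. Shares of cells were taken after thinning to 1000 UMIs. The 5 genes and the context lists were chosen with earlier results of these data known. Named genes are the members, the context genes with the largest ratio per list and comparison, and the 5 genes most like each member over sums of at least 50 cells, of which 1 gene is not reported here. The ratios were recomputed under 13 other settings, of which 2 were chosen after seeing the data, with TMM factors from edgeR 4.0.16. Sequences and positions came from RefSeq promoters (GRCm38.p6) and the GENCODE annotation of GRCm38.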

Additional observations from a re-analysis of the deposited data

How the results depend on the processing

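The count of members past 2-fold in the macrophage/monocyte-like class stayed at 0 for both single agonists over the untreated library under all 13 alternatives. For the combination over the untreated library it was 2 and became 1 with cells thinned to 2000 UMIs, with median-of-ratios factors, with TMM factors, with the mean of single-cell CPM and with subcluster shares held at their mean, Ccl7 being the 1 that stayed. Ccl2 came to -1.04, past the limit, over all deposited cells named by their own markers. For the combination over the STING agonist the count was 2 and became 1 with subcluster shares held at their mean, where Ccl2 came to -0.99. For the combination over the LTbR agonist it was 1, Ccl7 at the limit, and became 0 without doublet removal, at resolution 2, with cells thinned to 2000 UMIs, with median-of-ratios or TMM factors, with the mean of single-cell CPM and without the subclusters led by genes of other cell types, and 2 without the 10 cells with most UMIs. Ccl7 ranged over the alternatives from -1.57 to -1.08 for the combination over the untreated library. Of the 25 log2 ratios of the class, 7 changed sign with subcluster shares held at their mean and at most 2 under any other setting. Holding subcluster shares and leaving out subclusters were the alternatives chosen after seeing the data. No paired analysis was possible because each group had 1 library, and for the same reason no replicate could be left out. Depth limits the small groups: with 20 regulatory T cells in the combination library the Ccr2 interval ran from 580 to 1105 CPM.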
